A study of Mus musculus with 4 samples.

Results

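The enzymes that turn arachidonic acid into prostaglandins and 12-hydroxy fatty acids were followed in single basal cells of mouse dorsal epidermis. They are 9 of the 24378 genes in the count tables and were chosen by name: the cyclooxygenases *Ptgs1* and *Ptgs2*, the prostaglandin D synthase *Hpgds*, the prostaglandin E synthases *Ptges* and *Ptges3*, the reductase *Ptgr1*, and the 12-lipoxygenases *Alox12*, *Alox12b* and *Alox12e*. All groups came from female *Ivl-CreERT2*/*R26-tdTomato* mice on postnatal day 57. Every mouse had been given tamoxifen (10 µg per g, intraperitoneal) 2 days earlier, so the reporter is switched on where the Involucrin (*Ivl*) promoter drives Cre. Live basal cells, negative for CD34 and positive for CD49f and LY6A, were sorted into traced (Tom+) and non-traced (Tom-) cells and captured on Fluidigm C1 chips, with 2 libraries a sort from 2 mice. Each library is named here by its sort and by replicate 1 or 2, which stands for the run tag in its title, and whether a tag is a mouse is not stated.

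Cyclooxygenases convert free arachidonic acid into prostaglandin H2, the common precursor that the terminal synthases turn into prostaglandin D2 or E2. *Ptgs1* encodes the form usually regarded as constitutive and *Ptgs2* the inducible one, and both are studied in epidermis for growth and inflammation. Lipoxygenases oxygenate the same kind of fatty acid by another route, and in the outer epidermis *Alox12b* acts on the linoleate of ceramides while the water barrier is built.

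Of 384 wells, 161 held at least 2000 unique molecular identifiers (UMIs) on genes and entered the analysis. The Tom+ libraries gave 35 and 58 of these cells, and the Tom- libraries 20 and 48. Their median depth was 4047 and 4524.5 UMIs in Tom+ and 3877 and 3225 in Tom-, and the library sums ran from 81630 to 305407 UMIs. The reporter transcript was detected in 45.7% and 50% of the traced cells but also in 6.25% of the cells of Tom- replicate 2, and in 0 of 20 in Tom- replicate 1. At least 3 of 8 basal markers were seen in 157 of the 161 cells, while the granular markers *Lor*, *Ivl*, *Cdsn*, *Klk7* and *Flg2* together gave 17 UMIs, with *Flg2* at 0. A cell was called *Krt10*-positive when at least 6 of 2000 UMIs drawn from it were *Krt10*, the keratin of differentiating cells. This held for 25 and 37 cells of the Tom+ libraries and for 3 and 3 of the Tom- libraries, and 7 cells lay at the cut-off or 1 UMI below it.

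The members lie on 6 chromosomes of GRCm38, by RefSeq: *Ptgs1* on chr2:36216742-36258593, *Ptges* on chr2:30889471-30931020, *Ptgs2* on chr1:150100031-150108234, *Hpgds* on chr6:65117293-65144981, *Ptgr1* on chr4:58965590-58987131 and *Ptges3* on chr10:128058982-128077254. The 3 lipoxygenase genes lie on chromosome 11, with *Alox12* at chr11:70241457-70255380 and *Alox12e* at chr11:70315610-70322720 near each other and *Alox12b* at chr11:69157072-69169791. The chemistry reads the 5′ end of a transcript, so the sequence just before the start is shown for 4 members whose levels are described with the sort or with *Krt10*. It is RefSeq's window for GRCm38.p6, printed 5′ to 3′ on the gene's strand up to the base before the first exon that GENCODE M21 or RefSeq places there. The windows are chr2:36230176-36230425 (*Ptgs1*, plus strand), chr1:150099781-150100030 (*Ptgs2*, plus strand), chr2:30903298-30903547 (*Ptges*, minus strand) and chr4:58987132-58987328 (*Ptgr1*, minus strand). Capitals mark matches, on either strand, to the TATA box (letters TATAAA), the CCAAT box (its own 5 letters), the GC box (letters GGGCGG), the cAMP response element (letters TGACGTCA) or the AP-1 site (letters TGANTCA), and none of these contains another. For *Ptgs1* and *Ptges* the listed start lies inside the span of the gene, which has other starts.
Ptgs1: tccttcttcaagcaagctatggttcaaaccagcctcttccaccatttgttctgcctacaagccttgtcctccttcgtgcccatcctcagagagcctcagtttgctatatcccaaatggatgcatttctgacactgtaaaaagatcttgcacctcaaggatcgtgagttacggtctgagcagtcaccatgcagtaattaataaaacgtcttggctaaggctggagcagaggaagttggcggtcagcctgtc
Ptgs2: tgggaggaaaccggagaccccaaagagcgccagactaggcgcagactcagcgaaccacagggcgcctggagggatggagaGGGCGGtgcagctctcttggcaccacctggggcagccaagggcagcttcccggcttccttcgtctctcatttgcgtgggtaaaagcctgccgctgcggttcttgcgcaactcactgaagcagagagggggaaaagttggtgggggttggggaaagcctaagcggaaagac
Ptges: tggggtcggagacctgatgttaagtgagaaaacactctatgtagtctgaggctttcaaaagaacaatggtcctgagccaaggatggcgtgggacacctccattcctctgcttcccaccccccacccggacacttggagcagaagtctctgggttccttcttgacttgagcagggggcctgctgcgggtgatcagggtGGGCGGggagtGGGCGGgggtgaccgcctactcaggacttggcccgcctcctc
Ptgr1: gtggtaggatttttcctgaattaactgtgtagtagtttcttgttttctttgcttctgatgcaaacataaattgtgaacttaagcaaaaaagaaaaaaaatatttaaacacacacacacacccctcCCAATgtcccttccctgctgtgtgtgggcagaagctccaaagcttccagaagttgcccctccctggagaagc
The GC box letters GGGCGG stood once before *Ptgs2* and at 2 places before *Ptges*, and 32.7% of the 32851 RefSeq windows of 250 bases hold them. CCAAT stood once before *Ptgr1*, and 27.9% of windows of its 197 bases hold it. None of the 5 sets of letters was in the *Ptgs1* window. Most of the *Hpgds* window is annotated as exon, and it is not shown.

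*Ptgs1*, *Hpgds* and *Ptgr1* were higher in traced than in non-traced cells, each on the log2 scale by more than 2. UMIs were summed over the kept cells of a library and tested with edgeR over the 4 libraries. Of the 9 members, 6 passed the filter on low counts. The test called 3 of these higher and 0 lower, against 0.847% of all 3070 genes tested called higher and 0.391% called lower. *Ptgr1* reached the filter's level in the Tom+ libraries alone, and *Ptgs1* and *Hpgds* in 2 Tom+ libraries but only 1 Tom- library. The count of members is therefore not read against these shares. The 2 libraries of a sort are few, and the spread between them need not be that between mice.

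*Ptgs1* stood at 254 and 187 CPM (UMIs of the gene scaled to 1000000 gene UMIs of the library) in Tom+ (n = 2 libraries, mean 220 ± 47.9 SD) and at 73.5 and 32.5 in Tom- (mean 53.0 ± 29.0 SD). The groups did not overlap, and the fold change was 4.45 (log2 2.15, SE 0.49, edgeR adjusted p = 0.0302). *Hpgds*, which forms prostaglandin D2 with glutathione as cofactor, stood at 178 and 314 CPM in Tom+ and at 61.3 and 10.8 in Tom-. Again each traced library exceeded each non-traced one, and the fold change was 8.72 (log2 3.12, SE 0.59, edgeR adjusted p = 0.00675). *Ptgr1*, whose product reduces 15-keto prostaglandins and also oxidises leukotriene B4, stood at 95.4 and 118 CPM in Tom+ and at 12.3 and 10.8 in Tom-. Its Tom- level rests on 1 and 2 UMIs, the ratio of summed levels was 9.78 with a counting interval of 3.16 to 49.0, and the edgeR log2 fold change was 3.13 (SE 0.74, adjusted p = 0.0366). The share of all genes that separate by sort in CPM was not computed, so the number of members that do is not read as a result. With no filter edgeR still called *Ptgs1*, *Hpgds* and *Ptgr1*.

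Each of these calls was lost without some single libraries, in fits that leave 1 library in a sort. The edgeR log2 fold changes in these fits were 1.62 to 2.62 for *Ptgs1*, 2.11 to 4.39 for *Hpgds* and 2.92 to 3.31 for *Ptgr1*. Without Tom- replicate 2 none of the 3 passed (edgeR log2 1.62 with adjusted p = 0.343 for *Ptgs1*, 2.11 with adjusted p = 0.100 for *Hpgds* and 3.14 with adjusted p = 0.247 for *Ptgr1*). Without Tom+ replicate 1 *Ptgs1* (edgeR log2 1.98, adjusted p = 0.110) and *Ptgr1* (3.31, adjusted p = 0.0745) did not pass, and without Tom+ replicate 2 *Hpgds* (2.55, adjusted p = 0.0846) and *Ptgr1* (2.92, adjusted p = 0.927) did not. The direction was the same in every alternative in which the 3 genes were tested; the DESeq2 Wald test called *Hpgds* alone, gave *Ptgs1* an adjusted p of 0.0878 and gave none for *Ptgr1*, and limma-voom called none (adjusted p = 0.0968, 0.325 and 0.596).

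**Figure D1:**
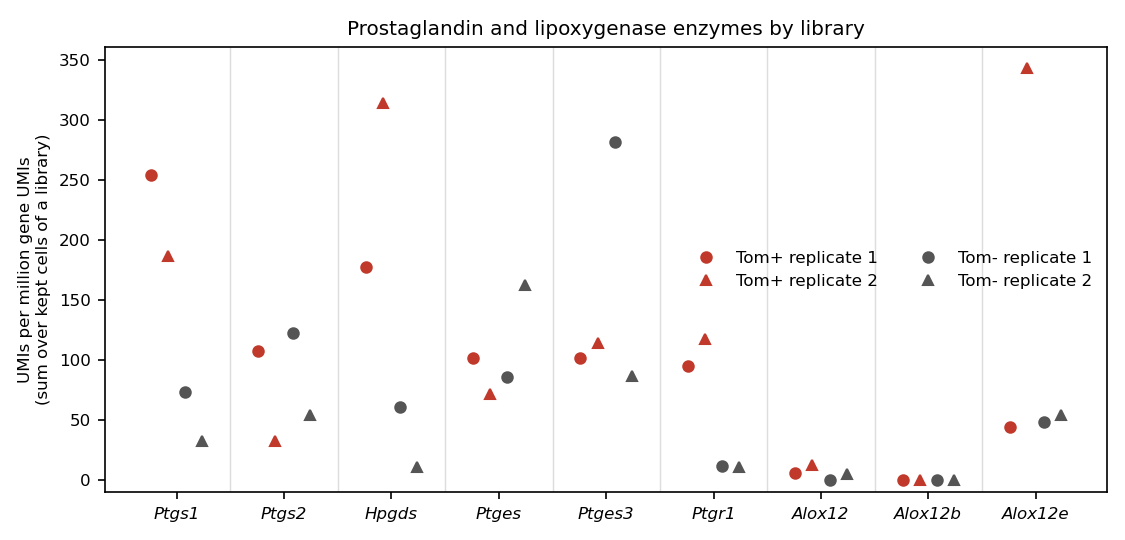
Levels of the 9 enzymes in CPM (y axis, linear) in each of the 4 libraries (points; red Tom+, grey Tom-; circles replicate 1, triangles replicate 2). Both Tom+ points lie above both Tom- points for *Ptgs1*, *Hpgds* and *Ptgr1*, and also for *Alox12*, which has 6 UMIs in all. The share of all genes that separate in this way was not computed. The highest *Alox12e* point (344) is Tom+ replicate 2, and *Alox12b* is at 0 throughout.

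The inducible cyclooxygenase and the 2 prostaglandin E synthases did not follow this pattern. *Ptgs2* stood at 108 and 32.7 CPM in Tom+ and at 123 and 54.2 in Tom-, and the groups overlapped (edgeR log2 -0.36, SE 0.63, adjusted p = 0.959). *Ptges*, the membrane-bound synthase that is often induced along with *Ptgs2*, stood at 102 and 72.0 in Tom+ and at 85.8 and 163 in Tom- (edgeR log2 -0.69, SE 0.47, adjusted p = 0.752). *Ptges3*, the cytosolic synthase that is better known as the HSP90 co-chaperone p23, stood at 102 and 115 in Tom+ and at 282 and 86.7 in Tom- (edgeR log2 -0.62, SE 0.48, adjusted p = 0.812). In CPM all 3 overlapped between the sorts. Tom- replicate 1 was the highest library for *Ptgs2* and *Ptges3* and Tom- replicate 2 for *Ptges*, and leaving out the library turned the sign in each case (to 0.14, 0.24 and 0.05 in that order, none called by edgeR).

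The lipoxygenases were uneven. *Alox12e*, the epidermal 12-lipoxygenase of mice, gave 7 and 105 UMIs in Tom+ and 4 and 10 in Tom-, which is 44.5, 344, 49.0 and 54.2 CPM. Only Tom+ replicate 2 stood apart, and in replicate 1 the Tom- library was the higher one. A single cell of Tom+ replicate 2 held 32 of the 126 UMIs. The gene reached the filter's level of 58.5 CPM in 1 library and was not tested; with no filter edgeR gave log2 2.10 (SE 0.51, adjusted p = 0.0149), a value that rests on that library. *Alox12*, the platelet-type enzyme, gave 6 UMIs in all, 1 and 4 in Tom+ and 0 and 1 in Tom-. In CPM these are 6.36 and 13.1 against 0 and 5.42, which do not overlap but rest on too few UMIs to show a direction. *Alox12b* gave 0 UMIs in the 161 cells, and a count of 0 allows up to 9.82, 16.3, 19.1 and 36.8 CPM in the 4 libraries from the deepest to the shallowest. *Alox12* and *Alox12e* are close paralogs, and how reads that fit both were counted is not given in the sources used here.

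Traced and non-traced cells differed in their share of *Krt10*-positive cells, so the members were next compared between *Krt10* classes within each library. With the filter on low counts, edgeR called the constitutive cyclooxygenase and *Hpgds* higher in *Krt10*-positive cells and the inducible cyclooxygenase lower, and with no filter it called none of the 3 (adjusted p = 0.112 for *Ptgs1*, 0.544 for *Hpgds* and 0.0761 for *Ptgs2*). UMIs were summed per library and class, giving 8 sums, and tested with edgeR with the library as a block and without *Krt10* itself. Of 6 members tested, 2 were called higher and 1 lower, where 3.08% of 1950 genes were called higher and 3.38% lower. *Ptgs1* and *Ptgr1* passed the filter only through *Krt10*-positive sums and *Ptgs2* and *Ptges* only through the others. *Hpgds* reached its level in 3 positive sums and 1 other, and *Ptges3* in 2 and 1. The count of members is therefore not read against these shares. Each Tom- library has only 3 *Krt10*-positive cells, so those 2 sums hold few UMIs.

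In *Krt10*-positive cells, *Ptgs1* stood at 343 and 234 CPM in the Tom+ libraries and at 238 and 235 in the Tom- libraries. In the other cells it stood at 76.4 and 83.4 in Tom+ and at 30.9 and 17.5 in Tom-. The class was higher in all 4 libraries, by an edgeR log2 fold change of 2.13 (SE 0.55, adjusted p = 0.00628). The Tom- values in *Krt10*-positive cells come from 4 and 3 UMIs.

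*Hpgds* stood at 248 and 391 CPM in *Krt10*-positive Tom+ cells and at 38.2 and 146 in the other Tom+ cells. In Tom- it stood at 178 and 0 in *Krt10*-positive cells and at 30.9 and 11.6 in the others, from 3, 0, 2 and 2 UMIs. It was higher in the positive class in 3 of 4 libraries (edgeR log2 1.74, SE 0.55, adjusted p = 0.0400). *Ptgr1* had 44 of its 54 UMIs in *Krt10*-positive cells, 143 and 134 CPM in Tom+ against 0 and 83.4 in the other Tom+ cells. It was not called (edgeR log2 1.66, SE 1.00, adjusted p = 0.455).

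*Ptgs2* lay the other way. It stood at 305 and 62.6 CPM in Tom+ cells below the cut-off and at 9.53 and 19.1 in *Krt10*-positive Tom+ cells. In Tom- it stood at 154 and 58.2 below the cut-off and at 0 in both positive sums. Both Tom+ libraries were lower in the positive class. The 2 Tom- zeros come from 3 cells each, where a count of 0 allows up to 178 and 235 CPM, so they show no direction. Over all cells there were 5 UMIs in the positive class against 42 below the cut-off (ratio 0.133, counting interval 0.0411 to 0.336). The gene was called lower by edgeR (log2 -3.25, SE 0.99, adjusted p = 0.0284). Its 47 UMIs came from 17 cells, and the 2 highest cells, both below the cut-off, held 9 and 8 of them.

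*Ptges* ran in the same direction as *Ptgs2*. Below the cut-off it stood at 248 and 115 CPM in Tom+ and at 92.6 and 175 in Tom-, and in *Krt10*-positive cells at 28.6, 52.5, 59.4 and 0 in the same order. Both Tom+ libraries were lower in the positive class, and the Tom- values there come from 1 and 0 UMIs, too few to show a direction. The gene missed the threshold (edgeR log2 -1.97, SE 0.66, adjusted p = 0.0555). *Ptges3* stood between 75.7 and 293 CPM in the 8 sums without a common direction (edgeR log2 0.19, SE 0.52, adjusted p = 0.914). *Alox12e* had 106 of 126 UMIs in *Krt10*-positive cells, 97 of them in Tom+ replicate 2, and was not tested.

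These calls too depended on the libraries and the cut-off. *Ptgs1* missed the threshold in 6 of 18 alternatives, with edgeR log2 fold changes from 1.18 to 3.44 over the 18. It was missed without Tom+ replicate 1 (edgeR log2 2.18, adjusted p = 0.0882) and in the Tom+ libraries alone (1.72, adjusted p = 0.0786), among others. *Ptgs2* missed it in 4 of the 11 alternatives that tested it, among them without Tom- replicate 2 (edgeR log2 -3.16, adjusted p = 0.115). *Ptgs2* was not tested without any 1 of the other 3 libraries. *Hpgds* missed it in 13 of 17 alternatives, among them without Tom+ replicate 1 (edgeR adjusted p = 0.369), without Tom+ replicate 2 (2.16, adjusted p = 0.394) and without Tom- replicate 1 (1.62, adjusted p = 0.0548).

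**Figure D2:**
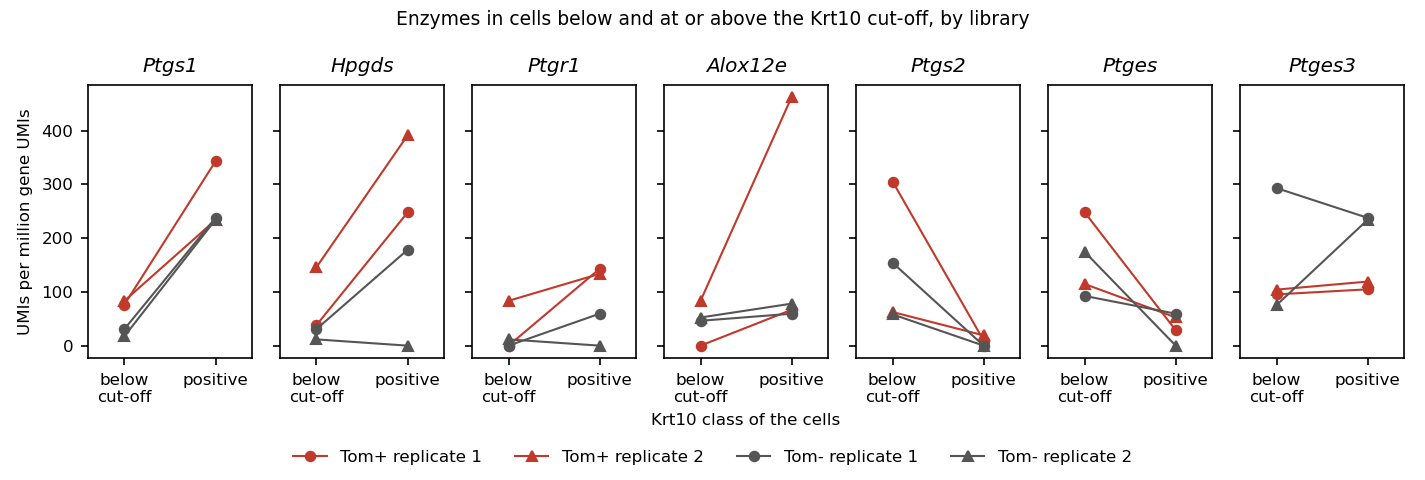
Levels in CPM (y axis, linear, shared) in cells below the *Krt10* cut-off and in *Krt10*-positive cells, with a line for each library (red Tom+, grey Tom-; circles replicate 1, triangles replicate 2). Lines of *Ptgs1* rise in all 4 libraries, from at most 83.4 to at least 234, and those of *Ptgs2* and *Ptges* fall in all 4. The positive points of Tom- rest on 3 cells each. For *Ptgs2* and *Ptges* they hold 0 or 1 UMI, too few to show a direction.

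**Figure D3:**
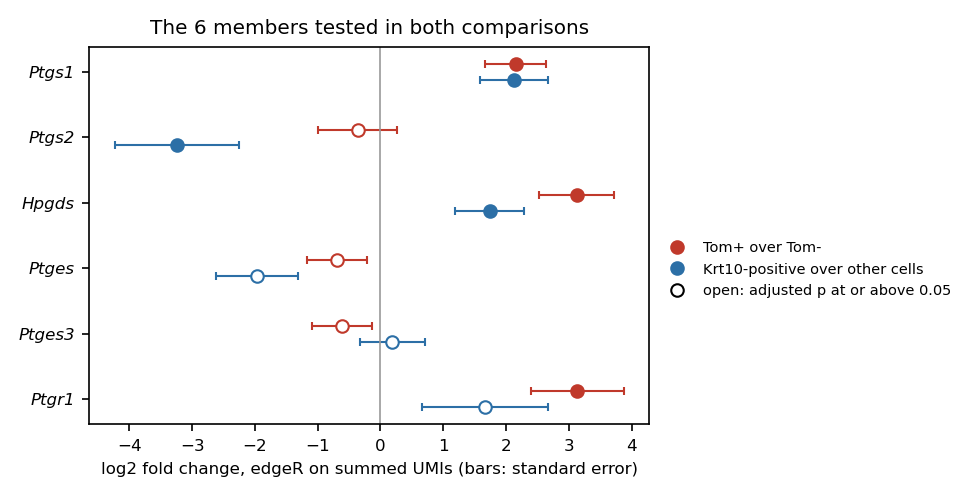
Log2 fold changes of the 6 members tested (x axis; y axis, genes) between Tom+ and Tom- (red) and between *Krt10*-positive and other cells (blue), with edgeR standard errors as bars and open points where the adjusted p was 0.05 or more. *Ptgs1* and *Hpgds* are filled on the right in both comparisons, and *Ptgs2* is filled at -3.25 in the *Krt10* comparison only.

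Among cells below the *Krt10* cut-off, 2 members could be tested between the sorts and neither was called. These cells were not alike in *Krt10*: 2 of 10 and 19 of 21 Tom+ cells had 1 to 5 *Krt10* UMIs, against 8 of 17 and 8 of 45 Tom- cells, and the rest had 0. There edgeR called 0.152% of 1317 genes higher in Tom+ and 0% lower, with 71 genes at an unadjusted p under 0.05. *Ptgs2* gave a log2 fold change of 0.76 (SE 0.72, adjusted p = 0.993) and *Ptges* one of 0.19 (SE 0.56, adjusted p = 0.993). *Hpgds* gave 2 and 14 UMIs in 10 and 21 Tom+ cells and 2 and 2 in 17 and 45 Tom- cells, a ratio of levels of 6.38 with a counting interval of 2.06 to 26.2, and *Ptgs1* gave 4 and 8 against 2 and 3 UMIs, a ratio of 3.83 with an interval of 1.26 to 13.9. The 14 *Hpgds* UMIs of Tom+ replicate 2 were all in its cells with 1 to 5 *Krt10* UMIs, so the ratio sets unlike *Krt10* levels side by side, and neither gene passed the filter in these sums. With no filter edgeR gave log2 2.41 (SE 1.02) for *Hpgds* and 1.80 (SE 1.04) for *Ptgs1*, both with an adjusted p of 0.942. Whether the *Krt10* contrast itself differed between the sorts was tested with edgeR as an interaction, and no member was called (smallest adjusted p = 0.954, with 5 of 1950 genes called). Its log2 standard errors, derived from the F statistic, were 1.18 for *Ptgs1*, 4.97 for *Ptgs2* and 6.82 for *Hpgds*. For *Ptges*, *Ptges3* and *Ptgr1* they were 1.79, 1.07 and 0.68. The *Ptgr1* value is below its 1.00 in the *Krt10* contrast, though its positive Tom- sums hold 1 UMI, so these errors are rough. With so few UMIs in those sums the test cannot show that the contrast is alike in both sorts.

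Presence per cell was read on cells thinned to 2000 UMIs, since deeper cells show more genes. Cells with a *Ptgs1* UMI made up 37.1% and 24.1% of the Tom+ libraries and 10% and 4.17% of the Tom- libraries. For *Hpgds* the shares were 20% and 27.6% against 10% and 0%, where 0 of 48 cells allows up to 6.25%. For *Ptgr1* they were 11.4% and 10.3% against 5% and 0%. The Tom+ shares lay above the Tom- shares for these 3 genes, with an exact permutation p of 0.333, the smallest that 2 libraries against 2 can give. The share of all genes that separate by sort was not computed, so the number of members that do is not read as a result. In this draw *Alox12e* separated with the Tom+ shares higher, at 8.57% and 27.6% against 5% and 6.25% (exact permutation p = 0.333). Over 20 other draws its mean share was 4.86% in Tom+ replicate 1, below the 6.25% and 5.83% of the Tom- libraries. *Ptges* separated the other way, at 14.3% and 10.3% in Tom+ against 20% and 16.7% in Tom-, with the same exact permutation p of 0.333. With all UMIs of a cell, *Hpgds* was found in 12 of 35 cells of Tom+ replicate 1, 31 of 58 of Tom+ replicate 2, 3 of 20 of Tom- replicate 1 and 2 of 48 of Tom- replicate 2.

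The 6 enzyme steps were then counted in each cell, with *Ptgs1* and *Ptgs2* as the cyclooxygenase step and the 3 lipoxygenases as another. Among thinned cells, a cyclooxygenase UMI was seen in 45.7% and 31.0% of the Tom+ libraries against 20% and 6.25% of the Tom- libraries. For a lipoxygenase UMI the Tom+ shares were 8.57% and 29.3% and the Tom- shares 5% and 8.33%. With all UMIs these shares overlapped, at 8.57% and 37.9% in Tom+ and 10% and 10.4% in Tom-. *Ptges3* was the most common step in Tom- replicate 1, at 45% of its cells, and *Ptges* the most common in Tom- replicate 2, at 16.7%.

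**Figure D4:**
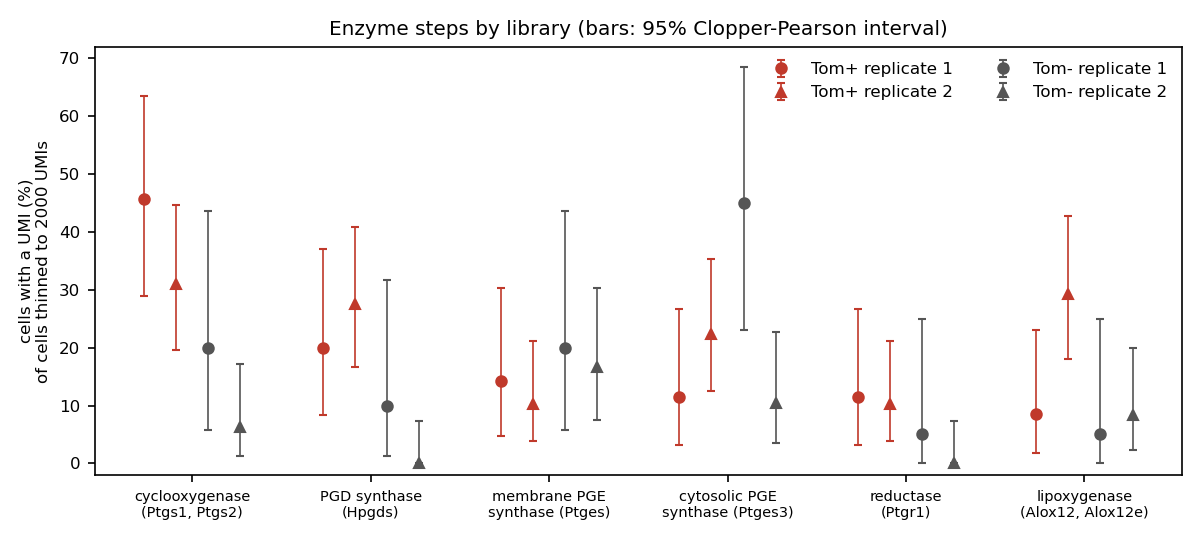
Share of thinned cells with a UMI of each enzyme step (y axis, percent) in each library (red Tom+, grey Tom-; circles replicate 1, triangles replicate 2), with 95% Clopper-Pearson intervals as bars. Tom+ points lie above Tom- points for cyclooxygenase (45.7% and 31.0% against 20% and 6.25%), *Hpgds*, *Ptgr1* and the lipoxygenases, and the intervals of replicate 1 overlap throughout. For the lipoxygenases the order does not hold with all UMIs, where Tom+ replicate 1 (8.57%) lies below both Tom- libraries (10% and 10.4%).

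Most cells showed few steps. Of 161 thinned cells, 62 had none of the 6, 56 had 1, 31 had 2, 10 had 3 and 2 had 4. The mean number per cell was 1.11 and 1.31 in the Tom+ libraries and 1.05 and 0.417 in the Tom- libraries. The difference of the group means was 0.479 (exact permutation p = 0.333); within replicate 1 it was 0.0643 and within replicate 2 it was 0.894. With all UMIs of a cell the means were 1.60 and 2.41 against 1.35 and 0.792, and 1 cell, in Tom+ replicate 2, had all 6 steps.

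By *Krt10* class, 32.0% and 51.4% of the positive thinned Tom+ cells had at least 2 steps. Among Tom+ cells with 1 to 5 *Krt10* UMIs these were 1 of 2 and 5 of 19, and among those with 0 they were 1 of 8 and 0 of 2. In Tom- replicate 1 at least 2 steps were seen in 2 of 3 positive cells, 3 of 8 with 1 to 5 *Krt10* UMIs and 2 of 9 with 0. This draw was high for that library, with 35% of all its cells against 15% to 30% in 20 other draws. Over those draws its positive cells averaged 48.3%, against 30.4% and 55.4% in Tom+. Its cells below the cut-off averaged 20.3%, against 24.5% and 22.1% in Tom+. In Tom- replicate 2 at least 2 steps were seen in 0 of 3, 0 of 8 and 2 of 37 cells of these classes. At full depth the shares in positive Tom+ cells were 48.0% and 83.8%.

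**Figure D5:**
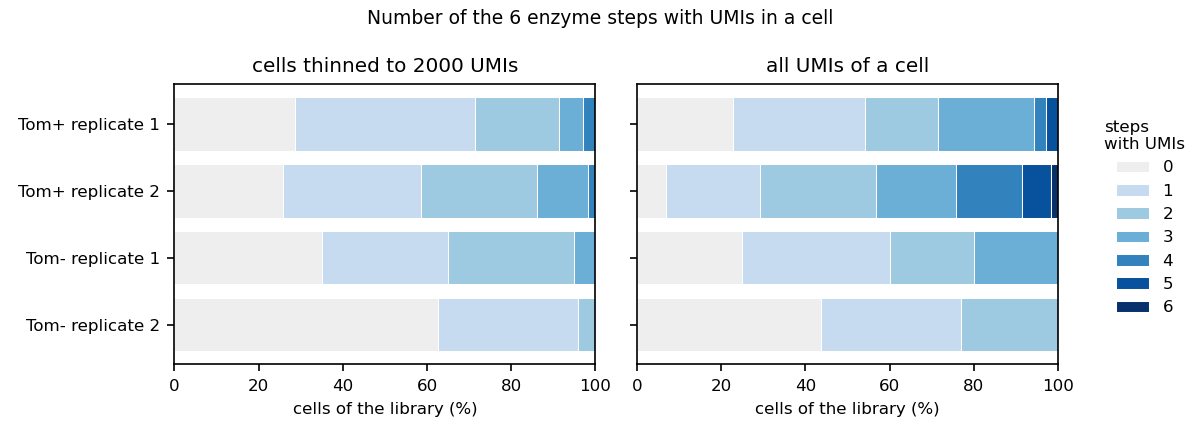
Share of the cells of each library (x axis, percent) by the number of the 6 enzyme steps with UMIs (shade, from 0 in grey to 6 in dark blue), in cells thinned to 2000 UMIs (left) and with all UMIs (right). Tom- replicate 2 has the most cells with none (30 of 48 thinned and 21 of 48 with all UMIs), and cells with 4 or more steps are seen in the Tom+ libraries alone.

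A cyclooxygenase and *Hpgds* together, the steps that lead to prostaglandin D2, were seen in 2.86% and 10.3% of the thinned cells of Tom+ and in 5% and 0% of those of Tom-. The difference was 4.10 percentage points (exact permutation p = 0.667), and it was -2.14 within replicate 1 and 10.3 within replicate 2. This draw of UMIs was low: over 20 other draws the difference lay between 5.23 and 13.5 with a mean of 8.70. The sign within replicate 1 also turned, since in the other draws the share was 5.71% to 11.4% in Tom+ replicate 1 and 0% to 5% in Tom- replicate 1. With all UMIs the pair was found in 25 of 93 Tom+ cells and 1 of 68 Tom- cells. By library these were 5 of 35 and 20 of 58 in Tom+ and 1 of 20 and 0 of 48 in Tom-. These counts are not corrected for depth, which was higher in the Tom+ cells. Of those 25 cells, 22 were *Krt10*-positive.

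Within the *Krt10*-positive Tom+ cells pooled over both libraries, *Hpgds* was about as frequent at full depth with a cyclooxygenase as without one. There 22 of 39 such cells with a cyclooxygenase had *Hpgds* (56.4%), against 56.5% of the cells without a cyclooxygenase. In thinned cells the shares were 24.0% and 35.1%. Of the 22 cells, 4 were in replicate 1 and 18 in replicate 2. Over all Tom+ cells at full depth the 2 libraries ran opposite ways. *Hpgds* was seen in 27.8% of cells with a cyclooxygenase against 41.2% without in replicate 1, and in 64.5% against 40.7% in replicate 2. *Ptgs1* and *Ptgs2* met in 4 of 93 cells of the Tom+ libraries and 0 of 68 of the Tom- libraries at full depth, where 42 and 5 cells had *Ptgs1* and 11 and 6 had *Ptgs2*. *Ptgs2* and *Ptges* met in 6 of the 11 Tom+ cells with *Ptgs2* and in 3 of the 6 Tom- cells with it, against 18.3% and 24.2% of the cells without *Ptgs2*. The reductase and a lipoxygenase met in 13 Tom+ cells at full depth, which is 52.0% of the 25 cells with *Ptgr1* and 17.6% of those without, and in thinned cells 5 of 10 against 18.1%. These pairs were picked from 15 pairs of steps and further pairs of genes after their values were seen, they are given with no test, and the cells with a member were deeper than those without it for all 8 members detected.

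The wider pathway was thinly covered, with 73 of 75 listed genes in the tables and 14 of them tested between the sorts. *Cbr2*, a carbonyl reductase that can act on prostaglandins, stood at 38.1 and 111 CPM in Tom+ and at 221 and 336 in Tom-, and edgeR called it lower (log2 -1.85, SE 0.44, adjusted p = 0.0399). It was also lower in *Krt10*-positive cells (edgeR log2 -3.30, SE 0.63, adjusted p = 0.000108). Among cells below the *Krt10* cut-off it was not called between the sorts (edgeR log2 -0.58, SE 0.45, adjusted p = 0.993). None of the other 13 was called between the sorts, where 0.847% of 3070 genes were called higher and 0.391% lower. Between *Krt10* classes 10 were tested, with 1 called lower (*Cbr2*) and 2 called higher, against 3.38% and 3.08% of 1950 genes. The 2 were *Elovl4*, which makes the very long fatty acids of acylceramides (edgeR log2 4.20, SE 0.48, adjusted p = 4.68e-10), and the prostaglandin transporter *Slco3a1* (edgeR log2 1.31, SE 0.35, adjusted p = 0.00892). Through which sums these genes passed the filter was not examined, so their counts are not read against these shares.

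By list, none of the 3 tested genes of arachidonate release was called between the sorts, and the largest changes were those of the cytosolic phospholipase *Pla2g4a* (edgeR log2 1.45, adjusted p = 0.638) and the secreted phospholipase *Pla2g2f* (0.68, adjusted p = 0.639). Of the barrier genes *Elovl4* (1.52, adjusted p = 0.165) and *Abhd5* (1.33, adjusted p = 0.449), of the leukotriene genes *Mgst3* (0.72, adjusted p = 0.542) and *Lta4h* (-0.21, adjusted p = 0.988), and of the transporters *Slco2a1* (-1.62, adjusted p = 0.200) and *Slco3a1* (0.66, adjusted p = 0.577) had the largest fold changes by edgeR, all short of the threshold. Among receptors only *Ptgfrn*, a regulator of the prostaglandin F receptor, was tested (0.34, adjusted p = 0.942). Of the 4 prostaglandin E receptors, *Ptger4* gave 45 UMIs and *Ptger1*, *Ptger2* and *Ptger3* gave 0, and the synthases *Ptgds*, *Ptgis* and *Tbxas1* gave 0; these were named after their values were seen.

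Markers of other cell types that carry some of these enzymes elsewhere were summed by library, and some sums lay within the CPM range of the members. Of 11 mast cell markers 8 were at 0, with 3 UMIs in all. Of 6 platelet and megakaryocyte markers 4 were at 0, with 63 UMIs in all. The platelet sums were 140 and 78.6 CPM in Tom+ and 110 and 43.3 in Tom-. Langerhans cell markers summed to 44.5 and 85.1 CPM in Tom+ and to 110 and 21.7 in Tom-, with *Csf1r*, *Ctss* and *Tyrobp* at 0. T cell markers summed to 12.7 and 259 in Tom+ and to 0 and 195 in Tom-, with all 12 genes detected. Neither list was higher in both Tom+ libraries, and without the cells that held at least 3 markers of either type, an alternative added after seeing the data, edgeR still called the 3 members between the sorts, while *Hpgds* missed the threshold between *Krt10* classes (adjusted p = 0.0669).

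Markers of the infundibulum and upper follicle were seen at 3 or more in 40 cells and summed to 636 and 2020 CPM in Tom+ and to 1421 and 1425 in Tom-. Of the 48 cells with *Hpgds* 16 were among them, and of the 47 with *Ptgs1* 15. Without these 40 cells, likewise added after seeing the data, edgeR gave *Ptgs1* a log2 fold change of 3.03 (adjusted p = 0.00233) and *Hpgds* one of 3.73 (adjusted p = 0.000469) between the sorts, *Ptgr1* was no longer called (3.22, adjusted p = 0.101), and between *Krt10* classes *Ptges* was called lower (-2.52, adjusted p = 0.0381). Depth moved with the sort as well, at medians of 4047 and 4524.5 against 3877 and 3225 UMIs, and in sums of thinned counts *Hpgds* was called between the sorts (edgeR log2 3.18, adjusted p = 0.0254) and *Ptgs1* was not (2.22, adjusted p = 0.0571).

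Of the 9 members only *Alox12e* reached 50 UMIs in thinned cells. The genes most like it over the 161 cells, by Pearson's r of ln(UMI + 1) among 944 genes, were *Sepp1* (0.36), *Spink5* (0.36) and *Sbsn* (0.33). These are weak correlations in sparse counts over cells of 4 libraries, most of its UMIs are from Tom+ replicate 2, and they are a description.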

How the data were processed

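The authors sorted basal epidermal cells, prepared 5′ end libraries with molecular identifiers on the C1 system and deposited 4 tables of UMI counts per gene and well, 96 wells each. The deposited counts are not normalized. The submitters' processing notes name the genome as GRCm38 and as mm10; the aligner, the counter, its strand setting and its annotation are not given in the sources used here. The tamoxifen dose printed is that of the labels, and the study's methods give another.

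Wells under 2000 gene UMIs were left out (169 had none and 54 had fewer), as were 109 spike-in and reporter rows, which hold 2.15% of the UMIs. No doublet caller was run; leaving out the 8 cells with the most UMIs was an alternative. UMIs were summed per library, or per library and *Krt10* class, and tested with edgeR 4.0.16 in R 4.3.3 (TMM, default filter on low counts, quasi-likelihood, Benjamini-Hochberg adjustment at 0.05); standard errors were derived from the F statistic. The p-values measure the spread between these 2 libraries a sort, whose run tags the labels do not tie to single mice. Shares were read on cells thinned to 2000 UMIs (seed 1), with 95% Clopper-Pearson intervals; a count of 0 is given the limit of 3 counts, and intervals cover counting error only. Shares were compared by two-sided exact permutation over libraries. DESeq2 1.42.0 and limma 3.58.1 served as alternatives. Python 3.11.15, numpy 2.4.6, pandas 2.3.3, scipy 1.17.1 and matplotlib 3.10.9 did the rest, and the scripts were tested on simulated counts.

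The members, the pathway and marker lists and the tests were chosen with earlier results of these data known. All members are named, and of each pathway list the genes called or, where none was, the 2 with the largest fold change. Replicates of a sort differed by more than sampling noise (chi-square per degree of freedom 2.37 in Tom+ and 2.30 in Tom-).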

Additional observations from a re-analysis of the deposited data

Results flagged for a closer look

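Among the 54 wells with fewer than 2000 gene UMIs, which no comparison used, *Ptges3* gave 4 UMIs in 2 wells, of 30056 UMIs in all. It was listed because this is above the 3 counts that a count of 0 allows; none of the other members gave more than 2 UMIs there.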

How the results depend on the processing

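Between Tom+ and Tom-, 3 members and 38 genes were called. With a minimum of 5000 UMIs per cell these became 0 and 8, with sums of thinned counts 1 and 24, and the members called were 1 by DESeq2 and 0 by limma-voom. Leaving out a library gave 0 to 3 members and 27 to 65 genes; the library left alone in its sort is then assumed to vary like the other sort. Between *Krt10* classes, 3 members and 126 genes were called. The members became 1 with a minimum of 1000 UMIs, with a cut-off of 1 UMI and without the library block, and 0 with a minimum of 5000 UMIs, thinned sums, no filter or Tom+ libraries alone. The genes became 34 with 5000 UMIs, 62 with thinned sums, 30 with a cut-off of 1 UMI, 54 with no filter and 51 in Tom+ alone. Leaving out a library gave 0 to 2 members and 71 to 128 genes. Below the cut-off 0 members were called in every alternative run. The cause of these shifts was not tested.

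The log2 fold changes between the sorts of members that were not called turned sign without a library and ranged from -1.28 to 0.36 for *Ptgs2*, from -1.04 to 0.049 for *Ptges* and from -1.29 to 0.24 for *Ptges3*. Below the cut-off the ranges were -0.61 to 1.61 for *Ptgs2* and -0.33 to 0.92 for *Ptges*, and *Ptges* also turned to -0.023 with a cut-off of 10 UMIs and to -0.20 by limma-voom. The difference in cells with a cyclooxygenase and *Hpgds* was 21.9 percentage points with all UMIs, 8.70 as the mean of 20 other draws and 0.357 to 7.84 without a library. The difference in enzyme steps per cell was 0.936 with all UMIs and 0.162 to 0.796 without a library. DESeq2 gave no adjusted p for *Ptgr1* between the sorts.

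The replicate numbers were not shown to pair the libraries: with 2 pairs, the deviations of the 2 sorts correlated at r = 0.206 over 1061 genes. With the replicate block the sort comparison called 116 genes, all 38 among them, and the same 3 members, and it changed no member's call. Depth limits *Alox12*, *Alox12b* and the *Krt10*-positive Tom- sums of 3 cells each.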
